A study of Homo sapiens with 19 samples.

Results

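The comparison described here concerns 1 library of HUES66 cells, an established human embryonic stem cell line, taken 24 hr after doxycycline with a knockdown aimed at all RBFOX2 transcripts (total KD). It was chosen by its labels alone: it is the total KD library of library series 21c, which holds 4 of the 19 libraries of the study. The other 3 libraries of that series served as its references. The first is HUES66 WT, whose labels give no treatment, time or knockdown. The others are an N-short KD and an N-long KD library, each the first replicate at 24 hr and each labelled as an isoform knockdown of RBFOX2. The 3 knockdown libraries of the series received 1 ug/ml doxycycline. The study's title names Cas13d, an RNA-cutting enzyme that is directed to a transcript by a guide RNA. Guide sequences, the number of cell clones and the way Cas13d was expressed are not given in the sources used here. The description of the HUES66 WT library carries the name used for the controls, and the series holds no library titled as a control, so an untreated culture and a doxycycline-treated control cannot be told apart for this reference. Total KD libraries at 48 and 96 hr, each with a control of the same time, came from another library series and are given beside the 24 hr values.

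Spliced RNA was measured as the number of reads that crossed each splice junction after removal of ribosomal RNA. The total KD library held 14438630 junction reads, the N-short KD library 13891603, the N-long KD library 14625040 and the HUES66 WT library 27937149. Levels are given as CPM, the usual counts-per-million scale. Here it is reads on junctions annotated to that gene alone, relative to all annotated junction reads of the library. Reads on junctions annotated to several genes were left out, so a low count can also reflect shared introns. CPM is not corrected for gene length, so levels are compared between libraries and not between genes. Markers of pluripotent stem cells summed to 4129.7 CPM in total KD against 3831 to 4033 in the 3 references. Of 12 germ layer markers, T, SOX17, CDX2 and HAND1 had no reads in any of the 4 libraries, and the 12 together summed to 1.98 CPM in total KD and 2.13 to 2.55 in the references. Fibroblast markers summed to 564 CPM in total KD and 522 to 571 in the references, with DCN at 0 in all 4. The total KD side is a single culture. The fits across all genes and exons therefore assumed that it varied as the other HUES66 libraries did, and intervals given for single libraries are 95% intervals for counting error only. As these are bulk samples, fewer cells of a type and less RNA per cell cannot be told apart.

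RBFOX2 belongs to a family of RNA-binding proteins, with RBFOX1 and RBFOX3, that bind the RNA motif UGCAUG in introns near alternative exons and so promote or prevent their inclusion. Many exons known to respond to these proteins lie in genes of the cytoskeleton, cell adhesion and membrane traffic. RBFOX2 is the most widely expressed member and is known from embryonic stem cells, while RBFOX3 is best known from neurons.

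RBFOX2 itself (ENSG00000100320.22, minus strand of chromosome 22, 35738736 to 36028425 in GRCh38) fell in the total KD library. It stood at 49.2 CPM (696 reads), against 122 CPM in HUES66 WT, and 111 and 75.2 in N-short KD and N-long KD. The total KD library was thus the lowest of the 4 and N-long KD the next lowest. Total KD held 40.3% of the HUES66 WT level (exact interval of a ratio of 2 counts 37.1% to 43.7%). It held 44.2% of N-short KD (40.4% to 48.4%) and 65.4% of N-long KD (59.4% to 72.0%). Against the mean of the 3 references the fitted log2 fold change was -1.06 (SE 0.0786, adjusted p 3.9e-12 with edgeR's quasi-likelihood test). At 48 hr total KD held 64.4% of its control (59.5% to 69.6%) and at 96 hr 63.7% (58.5% to 69.4%), so the 24 hr library had the lowest RBFOX2 level of the 3 total KD libraries. RBFOX1 was near the detection limit, with 0.636 CPM (9 reads) in total KD and 0.985 to 1.39 in the references (log2 fold change -0.89, adjusted p 0.676). RBFOX3 was at 24.0 CPM in total KD and 20.7 to 21.6 in the references (log2 fold change 0.16, adjusted p 0.774).

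**Figure D1:**
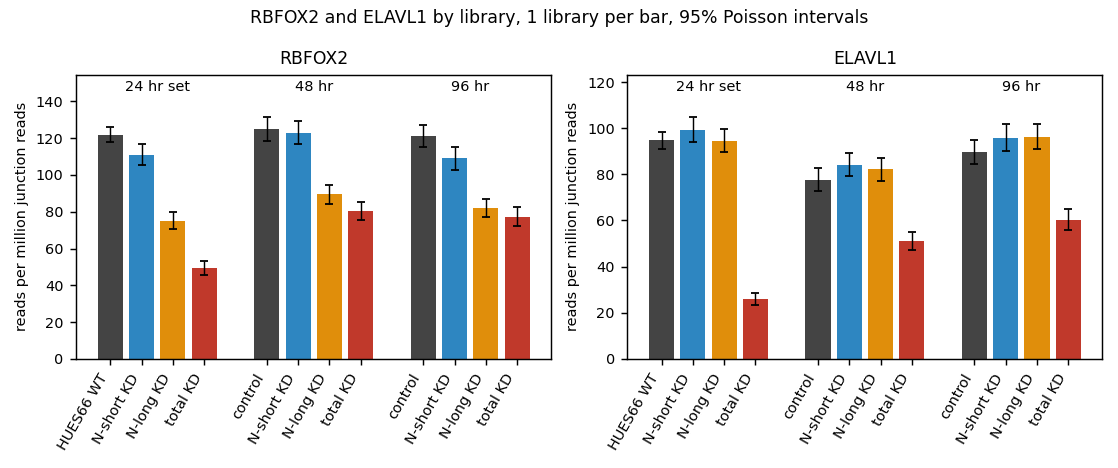
Levels (CPM, from junction reads) of RBFOX2 (left) and ELAVL1 (right), 1 bar per library with its 95% Poisson interval, for the 24 hr series and for the 48 and 96 hr sets. The 24 hr total KD bar is the lowest in both panels, at 49.2 for RBFOX2 and 25.9 for ELAVL1, and the total KD bars at 48 and 96 hr are higher.

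The RBFOX2 level in total KD differed between junctions. Of 19 annotated RBFOX2 junctions with at least 10 reads, total KD held between 21.1% and 154% of the mean of the 3 references, with a median of 53.4%. The counting interval lay wholly below 100% for 15 of the 19 against HUES66 WT, for 14 against N-short KD and for 7 against N-long KD. The junctions on either side of a 54 nt coding exon near the middle of the transcript were among the lowest. The intron at 35768350 to 35778024 had 30 reads in total KD against 251 in HUES66 WT, and 134 and 77 in N-short KD and N-long KD. The intron at 35778079 to 35781599 had 46 against 411, 183 and 121. These 2 junctions held 26.1% and 26.5% of the mean of the references.

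A division of the gene at this exon was made after the values were seen, with these low junctions on the 5′ side, so the sums below describe the values that set it and are no test. The 9 junctions at the exon or towards the 5′ end together held 25.8% of HUES66 WT (22% to 30%), 29.2% of N-short KD (24.7% to 34.5%) and 44% of N-long KD (36.8% to 52.4%). The 10 junctions towards the 3′ end held 50.6% (45.8% to 55.8%), 54.3% (48.6% to 60.6%) and 79.2% (70.4% to 89.1%). In the N-long KD library the same sides held 58.6% (52.5% to 65.4%) and 63.8% (58.3% to 69.8%) of HUES66 WT. At 48 hr total KD held 49.9% of its control (43.7% to 56.9%) on the 5′ side and 74.4% (67.4% to 82%) on the 3′ side, and at 96 hr 58.2% (50.5% to 66.9%) and 67.4% (60.5% to 75%).

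**Figure D2:**
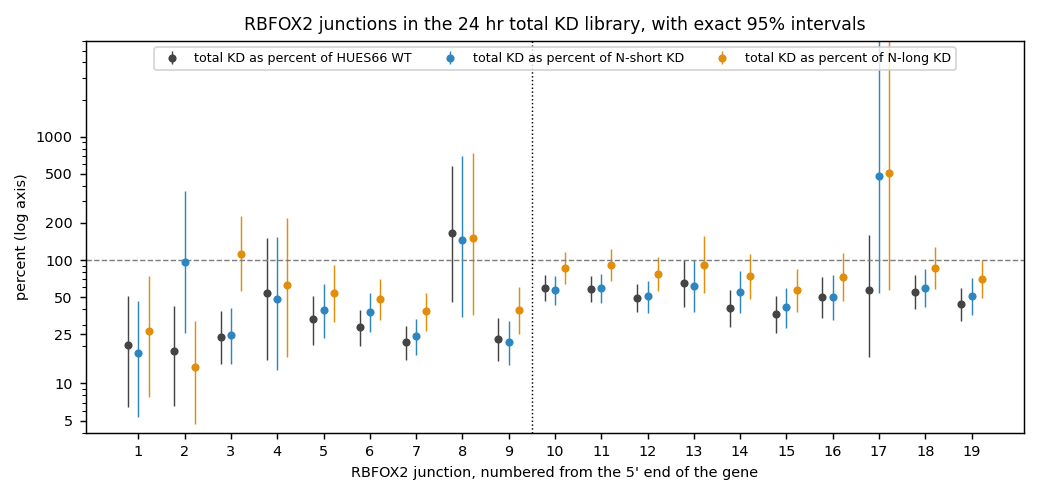
RBFOX2 reads of the 24 hr total KD library at each of 19 annotated junctions, as a percent of HUES66 WT, N-short KD and N-long KD on a log axis, numbered from the 5′ end, with exact 95% intervals (some run past the axis). The 9 junctions left of the dotted line sum to 25.8% of HUES66 WT and the 10 right of it to 50.6%. Junctions 8 and 17 have few reads and wide intervals.

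At 2 first-exon junctions of RBFOX2 the isoform knockdowns differed from each other, and total KD was low at both. The intron at 35810005 to 35938846 had 20 reads in total KD, 161 in HUES66 WT, and 78 and 18 in N-short KD and N-long KD. The intron at 35810005 to 35840191 had 6 reads in total KD, 63 in HUES66 WT, and 6 and 45 in N-short KD and N-long KD. Against the lower of the isoform knockdowns total KD stood at 113% of N-long KD (56.6% to 226%) for the first and 96.4% of N-short KD (25.8% to 361%) for the second, and both intervals are wide.

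The sequences of 8 exons are shown. They are the 54 nt RBFOX2 exon, whose flanking junctions were among the lowest of that gene, and 7 coding exons whose inclusion fell in total KD. They were read from GENCODE 29 transcripts (GRCh38) on the strand of the gene, and capitals mark the letters GCATG, the core of the RBFOX motif in DNA letters. Coordinates stand with the values below, and the RBFOX2 exon lies on the minus strand at chr22:35778025-35778078.
RBFOX2: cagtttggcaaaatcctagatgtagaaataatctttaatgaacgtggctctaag
EPB41: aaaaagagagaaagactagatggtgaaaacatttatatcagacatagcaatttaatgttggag
GOLIM4: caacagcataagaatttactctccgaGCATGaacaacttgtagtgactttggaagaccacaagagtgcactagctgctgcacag
MYO18A: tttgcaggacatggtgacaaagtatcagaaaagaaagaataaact
DIAPH1: actctgaagcggctcatggcagatgag
MAGI1: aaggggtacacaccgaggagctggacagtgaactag
ENAH: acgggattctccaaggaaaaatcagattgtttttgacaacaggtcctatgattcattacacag
ECT2: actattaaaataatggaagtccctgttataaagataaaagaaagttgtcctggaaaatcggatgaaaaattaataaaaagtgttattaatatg
The strand searched was that of the transcript. GCATG was present in 1 of the 15 exons described below, that of GOLIM4 (6.67%), and in 674 of all 6775 exons tested (9.95%); TGCATG was in 0 of the 15 and in 177 of the 6775 (2.61%). The introns that flank these exons were not searched.

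Exon inclusion is the percent of inclusion reads (the mean of the junctions into and out of an exon) among inclusion plus skipping reads. Of 6775 cassette exons tested, 20 in 17 genes passed an adjusted p of 0.05 against the mean of the 3 references, which is 0.295% of the exons. At an unadjusted p of 0.05, 338 exons passed. Of the 20, inclusion was lower in total KD for 17 and higher for 3. In 15 of the 20, in 14 genes, the junctions into and out of the exon lay within 5-fold of each other in each of the 4 libraries, and inclusion of all 15 fell in total KD. Their median inclusion was 46.2% in total KD, 80.7% in HUES66 WT, and 80.3% and 64.2% in N-short KD and N-long KD. In 15 of 15 the N-long KD library lay between total KD and both other references. For FMNL3, however, N-long KD (91.3%) and N-short KD (91.4%) were nearly level. That total KD was the lowest follows in part from how the 15 were picked. Since the same counts picked the 15, the overlap of their Wilson intervals is a description and no added evidence. In 9 of the 15 the Wilson interval of total KD did not overlap that of any reference. The share over all tested exons is not given for this count or for the order of N-long KD. The other 6, in ARHGAP17, CTTN, DIAPH1, GOLIM4, MAGI1 and MSI1, overlapped that of N-long KD. Without the N-long KD library of the series 9 exons passed the test, 5 of them among the 15; without HUES66 WT 12 passed, 8 among the 15. With limma on log2 ratios 0 exons passed (332 at an unadjusted p of 0.05), and with no term for library set 0 passed (199 unadjusted).

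The exon of FMNL3, a formin that assembles actin filaments, had the largest difference among these 15. This 115 nt exon (chr12:49646639-49646753, partly coding) was included at 46.2% in total KD (interval 31.6% to 61.4%), 96.0% in HUES66 WT, and 91.4% and 91.3% in N-short KD and N-long KD (log2 odds ratio -3.91, SE 0.77, adjusted p 0.00149). In total KD 21 reads skipped it, against 2 or 3 in each reference, although HUES66 WT was sequenced more deeply. In DIAPH1, another formin, a 27 nt coding exon (chr5:141588224-141588250) was included at 48.8% in total KD, 83.0% in HUES66 WT, and 82.5% and 58.8% in N-short KD and N-long KD (adjusted p 0.0108). Both formin exons were therefore skipped most in total KD, but only that of DIAPH1 was also low in N-long KD.

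In EPB41, the gene of the membrane-skeleton protein 4.1R, the 63 nt exon at chr1:29060422-29060484 was included at 35.1% in total KD (25.2% to 46.5%). Its inclusion was 77.2% in HUES66 WT, and 80.3% and 58.7% in N-short KD and N-long KD (log2 odds ratio -2.31, SE 0.403, adjusted p 1.3e-04). In MYO18A, an unconventional myosin, the 45 nt exon at chr17:29085604-29085648 was included at 45.5% in total KD, 80.7% in HUES66 WT, and 73.2% and 69.6% in N-short KD and N-long KD (log2 odds ratio -1.86, SE 0.435, adjusted p 0.0176). FMNL3, EPB41 and MYO18A were the exons among these 15 that differed from each reference by at least 20 percentage points.

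The smallest adjusted p among the 15 was that of ENAH, which encodes an actin regulator of the Ena/VASP family. Its 63 nt exon (chr1:225504991-225505053) was included at 46.9% in total KD (42.8% to 50.9%), 75.0% in HUES66 WT, and 69.2% and 64.2% in N-short KD and N-long KD (log2 odds ratio -1.40, SE 0.149, adjusted p 3.7e-11). In ECT2, a guanine nucleotide exchange factor that acts in cytokinesis, the 93 nt exon at chr3:172755483-172755575 stood at 66.0% in total KD, 91.6% in HUES66 WT, and 88.7% and 81.3% in N-short KD and N-long KD (adjusted p 6.3e-07). In MPRIP, which binds myosin phosphatase, a 63 nt exon was included at 71.7%, 95.2%, 93.9% and 90.2% in the same order of libraries (adjusted p 2.2e-08). These exons carried more reads than most of the 15, and total KD lay apart from every reference in each.

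In GOLIM4, a Golgi membrane protein, the 84 nt exon at chr3:168040786-168040869 fell to 33.0% in total KD from 79.2% in HUES66 WT and 78.9% in N-short KD, and stood at 44.8% in N-long KD (adjusted p 1.9e-05). The 36 nt exon of MAGI1, a scaffold of cell junctions, at chr3:65448022-65448057, was at 14.9% in total KD against 51.3%, 36.8% and 30.1% (adjusted p 0.0107). CTTN, the actin-binding protein cortactin, showed 10.5% against 26.7%, 24.7% and 14.5% for a 111 nt exon (adjusted p 0.0108). MSI1, an RNA-binding protein of stem cells, showed 57.1% against 81.8%, 85.2% and 68.9% for a 57 nt exon (adjusted p 0.0061). In ARHGAP17, a GTPase-activating protein, a 49 nt exon was at 25.9% against 64.4%, 57.1% and 37.7% (adjusted p 0.0108). In each of these genes N-long KD was the reference closest to total KD.

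The remaining exons among the 15 were 2 overlapping exons of FAM126A that share a junction, at 74.8% and 78.7% in total KD and 89.3% to 97.8% in the references, and a 22 nt exon of the ribosomal protein gene RPS24. The RPS24 exon, outside the annotated coding sequence, moved least, from 37.1% in HUES66 WT, and 34.8% and 33.2% in N-short KD and N-long KD to 29.6% in total KD (adjusted p 0.0469).

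**Figure D3:**
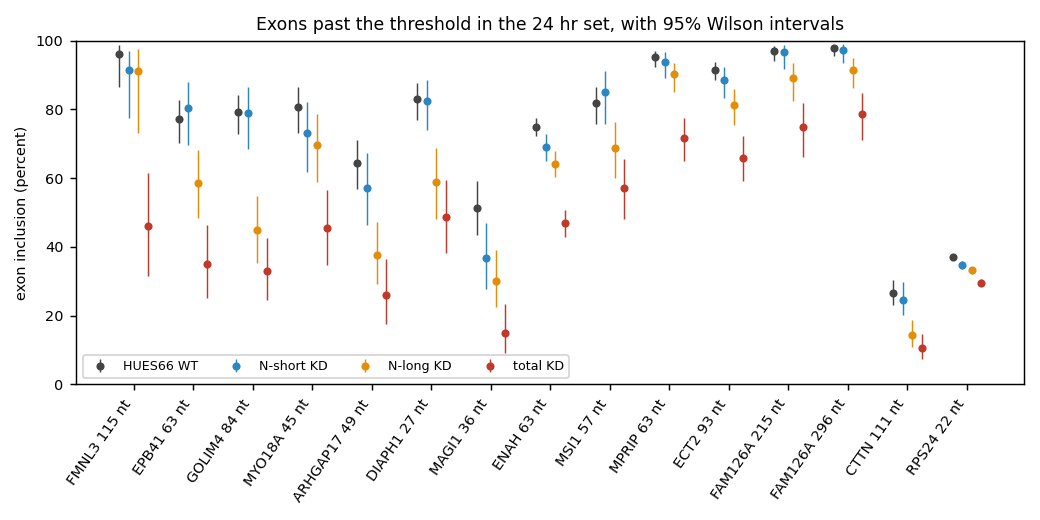
Inclusion of the 15 exons in percent, 1 point per library with its 95% Wilson interval, ordered by the difference from the mean of the references. The total KD point is the lowest of the 4 for every exon and the N-long KD point is the next lowest, with medians of 46.2% and 64.2%. For FMNL3 the N-long KD and N-short KD points are nearly level.

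The other 5 of the 20 exons were measured less evenly. TPM1, a tropomyosin, contributed a mutually exclusive pair of 76 nt exons: inclusion of the first rose to 91.0% in total KD from 76.2% in HUES66 WT, and 78.6% and 82.6% in N-short KD and N-long KD (adjusted p 1.4e-04). The second fell to 5.04% from 12.1%, 10.4% and 7.87% (adjusted p 0.0108). AP2M1, a subunit of an endocytic adaptor, gave a 97 nt exon at 96.1% in total KD and 0% in the 3 references. Its upstream junction, which a 6 nt exon of AP2M1 shares, had 892 reads in total KD and 0 in each reference, and over the 15 HUES66 libraries it was at 0 in 9 and between 555 and 892 in the others. Its downstream junction was at 0 in total KD. The downstream junction of the 6 nt exon had 862 reads in total KD and 811 to 1698 in the references, so the 4 libraries differed in whether the upstream junction was listed and not in reads that leave the short exon. A 5 nt exon of SEPT7 likewise had an upstream junction at 0 in total KD and HUES66 WT and at 75 and 66 reads in N-short KD and N-long KD. The AP2M1 and SEPT7 values are therefore uncertain.

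By size alone, 5 of 6337 exons with at least 20 reads in each library were lower by at least 20 percentage points than in each reference (0.0789%), and 6 were higher (0.0947%). Of the 5 lower ones, FMNL3, EPB41 and MYO18A passed the test. Of the 6 higher ones only the AP2M1 exon did. With at least 50 reads in each library 2 exons remained past this limit, both lower.

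Exons in genes known as RBFOX targets were also examined as a list of 35 genes. The members were chosen with earlier results of these data known, so an excess over all exons is not independent evidence. It contributed 84 tested exons in 31 genes, of which 8 passed the test, all lower in total KD, against 0.295% of all exons in either direction. Among its 83 exons with enough reads, inclusion in total KD was below all 3 references for 37 (44.6%), against 23.8% of all exons with enough reads. It was above all 3 for 18 (21.7%), against 27.6% of all. The RNA levels of the 35 genes had a median log2 fold change of -0.05, and only DIAPH1 passed the gene test (-0.17, adjusted p 0.0379).

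At 48 and 96 hr inclusion of the 15 exons was below the control of the same time in each of the 15. Of all 6775 tested exons, 3437 kept the sign of their 24 hr difference at 48 hr, 3494 at 96 hr and 1880 at both. Their median in total KD was 38.5% at 48 hr (control 87.4%) and 40.9% at 96 hr (control 78.7%). The 24 hr library was above the 48 hr library for 11 of the 15 and above the 96 hr library for 10. No exon of the 15 passed the test of 24 hr against later total KD. The difference for ENAH was 0.34 on the log2 odds scale (SE 0.205) and for ECT2 -0.08 (SE 0.335), both with an adjusted p of 1. In the authors' deposited table for 24 hr, which compares controls with total KD, 33 of 56004 splicing events had an adjusted p under 0.05, 21 of them with higher inclusion in the controls. In the authors' deposited table inclusion in control minus total KD was 48.6 percentage points for GOLIM4 (adjusted p 8.2e-12), 29.4 for ENAH (adjusted p 1.4e-11) and 51.6 for FMNL3 (adjusted p 3.6e-07). In the authors' deposited table the RPS24 exon differed by 7.4 points (adjusted p 0.684), and no event was matched to the ARHGAP17 exon or the 215 nt FAM126A exon. That table's header lists 2 control replicates, and the study labels no other total KD library of HUES66 at 24 hr, so these values are no separate measurement of the knockdown.

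Turning to gene levels, the test against the mean of the 3 references called 160 of 14035 genes (1.14%) at an adjusted p under 0.05, 74 of them higher (0.527%) and 86 lower (0.613%). At an unadjusted p of 0.05, 1341 genes passed. The genes that rose moved further: their median log2 fold change was 0.47, with 17 of 74 at 1 or more. The genes that fell had a median of -0.22, and ELAVL1 and RBFOX2 were the only ones at -1 or below. With library size in place of TMM scaling the split was 86 higher and 52 lower, and with DESeq2 and its size factors 29 higher and 131 lower. DESeq2's independent filtering left 11156 genes without an adjusted p, 48 of the 160 among them, and without that filtering the split was 38 higher and 69 lower. Without the N-long KD library of the series 105 genes passed, and with no term for library set 2 passed, RBFOX2 and ELAVL1. The ratios at 48 and 96 hr to the control of the same time use none of the 4 libraries, although those libraries entered the fit. Of the 74 genes that rose, 69 were above the control at both later times, against 33.8% of all tested genes with a positive change. Of the 86 that fell, 65 were below it at both, against 33.4% of all with a negative change.

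ELAVL1 (ENSG00000066044.14, minus strand of chromosome 19, 7958579 to 8005659) fell furthest of all genes that passed. It encodes HuR, an RNA-binding protein that binds AU-rich elements and stabilises many messenger RNAs. ELAVL1 stood at 25.9 CPM (367 reads) in total KD, against 94.7 in HUES66 WT, and 99.4 and 94.5 in N-short KD and N-long KD. The 3 references lay close together and total KD far below them. Total KD held 27.4% of HUES66 WT (24.5% to 30.5%), 26.1% of N-short KD (23.2% to 29.3%) and 27.4% of N-long KD (24.4% to 30.8%), and the fitted log2 fold change was -1.91 (SE 0.0872, adjusted p 7.1e-19). Over all junctions of each gene its fall was thus deeper than that of RBFOX2, the gene named as the target. On the 5′ side of RBFOX2, a division made after the values were seen, total KD held 25.8% of HUES66 WT (22% to 30%). That is close to the value of ELAVL1. The N-short KD and N-long KD references are themselves labelled as RBFOX2 knockdowns. Of 6 ELAVL1 junctions, 5 held between 22.9% and 32.9% of the mean of the references. The sixth, the intron at 7973626 to 7973724, which starts at an annotated first exon, had 11 reads in total KD and 2 to 6 in the references. At 48 hr ELAVL1 was at 51.0 CPM in total KD and 77.6 in the control, and at 96 hr at 60.2 and 89.7. No other member of a list of 16 AU-rich element binders passed the test, nor did any other of 39 tested splicing regulators.

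By size alone, 22 of 12791 genes with at least 50 reads in the 4 libraries were at least 2-fold higher in total KD than in each reference (0.172%), and 24 were at least 2-fold lower (0.188%). Of the higher ones 14 passed the test, and of the lower ones only ELAVL1. The other 23 lower genes had between 1 and 11 reads in total KD. With a minimum of 200 reads 9 genes were higher and 1 lower. RBFOX2 was not among them because N-long KD was itself low.

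The genes that rose most were INHBE, DDIT4, CHAC1, STC2, ALDH1L2, DDIT3, DDR2, TMEM150C, CDC42EP1 and SESN2, the 10 that passed the test and exceeded each reference 2-fold with the largest changes. INHBE, a subunit of the activin and inhibin hormones, had 4.52 CPM (64 reads) in total KD, 0.73 in HUES66 WT, and 1.17 and 0.975 in N-short KD and N-long KD (log2 fold change 2.23, SE 0.357, adjusted p 1.1e-04). DDIT4, an inhibitor of mTORC1 signalling also called REDD1, had 12.0 CPM in total KD, 2.81 in HUES66 WT, and 2.13 and 2.65 in N-short KD and N-long KD (log2 fold change 2.22, SE 0.206, adjusted p 8.5e-10). With time point in place of library set the DDIT4 change was 1.01 (adjusted p 0.815), and with no term for library set 1.26 (adjusted p 1). CHAC1, an enzyme that breaks down glutathione, had 13.6 CPM against 4.16, 3.52 and 3.76 (log2 fold change 1.81, adjusted p 1.3e-07). For each of the 3 genes total KD stood well above all references. The references lay close together for DDIT4 and CHAC1. For INHBE they ranged from 0.73 to 1.17 CPM and rest on few reads, 14 to 20 in each.

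STC2, a secreted glycoprotein, was at 24.9 CPM in total KD and 7.03 to 7.33 in the references (log2 fold change 1.77, adjusted p 9.7e-11). ALDH1L2, a mitochondrial enzyme of folate metabolism, was at 20.1 against 5.57 to 6.4 (1.76, adjusted p 6.1e-10). SESN2, a stress-inducible regulator of mTORC1, was at 31.3 against 10.8 to 13.0 (1.34, adjusted p 2.3e-08). DDIT3 (CHOP, a stress-induced transcription factor), DDR2 (a collagen receptor kinase), TMEM150C and CDC42EP1 (an effector of the GTPase CDC42) rose by 1.47 to 1.66 on the log2 scale from 41 to 52 reads in total KD, with adjusted p of 0.017 to 0.0364. These 4 rest on few reads. Without HUES66 WT the calls of DDIT3 and TMEM150C were lost (adjusted p 0.071 and 0.077). Without the N-short KD library of the series those of DDR2, CDC42EP1 and TMEM150C were lost (0.129, 0.121 and 0.0514), and without its N-long KD library those of DDIT3, TMEM150C and CDC42EP1 (0.441, 0.214 and 0.117).

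Genes of the amino acid response rose together. ATF4 is a transcription factor whose translation increases when the initiation factor eIF2 is phosphorylated, and its targets include enzymes of serine and one-carbon metabolism, aminoacyl-tRNA synthetases and amino acid transporters. Of 45 listed genes of this response 43 were tested, and 33 rose, 0 fell and 10 did not pass. Their median log2 fold change was 0.47, against 0.003 over all genes tested, where 0.527% rose. Among the 41 with at least 50 reads, 40 were above all 3 references (97.6%), against 35.2% of all tested genes with that many reads. The list made up 33 of the 74 genes that rose (44.6%). The count was 29 without HUES66 WT, 28 without the N-long KD or the N-short KD library of the series, and 0 with no term for library set. The list was chosen with earlier results of these data known, so its direction is not independent evidence.

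Among the serine and one-carbon enzymes, PSAT1 was at 445 CPM in total KD, 283 in HUES66 WT, and 269 and 292 in N-short KD and N-long KD (log2 fold change 0.64, SE 0.0544, adjusted p 1.2e-10). PHGDH, which begins serine synthesis, was at 601 CPM against 458 to 476 (0.34, adjusted p 3.7e-07), and MTHFD2, a mitochondrial folate enzyme, at 263 against 173 to 174 (0.58, adjusted p 1.4e-09). PCK2, the mitochondrial phosphoenolpyruvate carboxykinase, was at 100.3 against 46.0 to 47.9 (1.08, adjusted p 3.9e-12). SLC7A11, the cystine transporter, was at 70.0 against 33.0 to 34.2 (1.04, adjusted p 3.1e-09). In all of these total KD lay above every reference by far more than the references differed from each other. Of 10 tRNA synthetase genes on the list 8 rose, among them AARS (0.39, adjusted p 3.2e-08), CARS (0.43, adjusted p 3.2e-06) and YARS (0.21, adjusted p 0.0132), and EPRS and IARS did not pass.

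ATF4 itself was at 121 CPM in total KD and 98.2 to 100.2 in the references (log2 fold change 0.27, adjusted p 0.0275). The members that did not pass were ASNS (1.13, adjusted p 0.557, 39 reads in the 4 libraries), TRIB3 (0.98, 0.0655), ATF3 (0.88, 0.161), JDP2 (0.80, 0.0624), ATF5 (0.68, 0.19), XPOT (0.16, 0.055), EPRS (0.14, 0.149), PPP1R15A (0.05, 0.986), IARS (0.02, 0.932) and GDF15 (-0.20, 0.972). In edgeR's test of 24 hr against later total KD 0 of the 43 passed, a test in which 0.0784% of all genes passed. At 48 and 96 hr the 41 members with enough reads had medians of 0.53 and 0.42 for the log2 ratio to control, with 41 of 41 above 0 at each time. Of all tested genes with a positive change at 24 hr, 55.4% and 57.2% were above the control at these times.

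**Figure D4:**
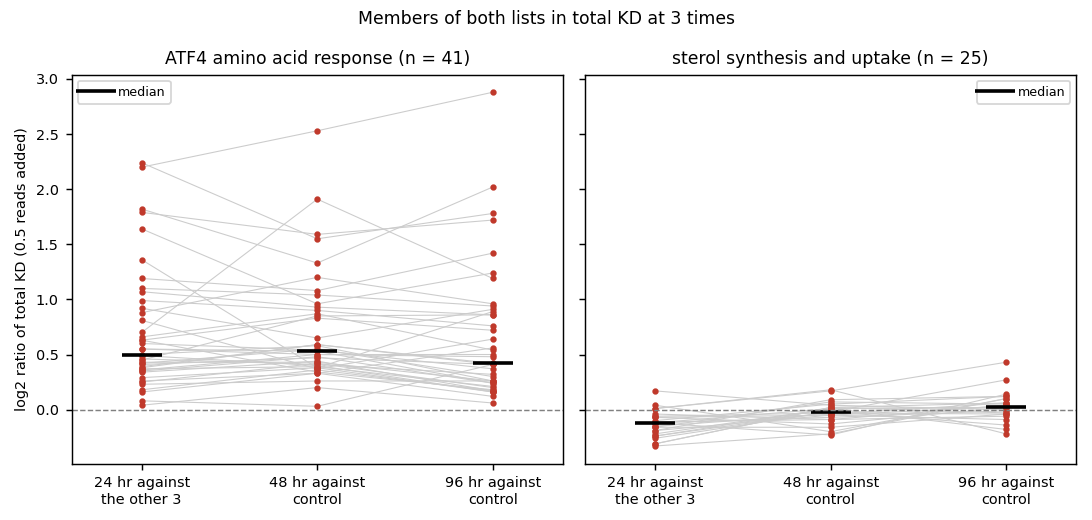
Log2 ratios of total KD for members of the amino acid response list (left, 41 genes) and of the sterol list (right, 25 genes), at 24 hr against the mean of the 3 references and at 48 and 96 hr against the control, 1 line per gene with the median as a bar. The left medians are 0.5, 0.53 and 0.42, and the right medians are -0.12, -0.02 and 0.02.

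Sterol synthesis genes were slightly lower. Most of these genes make cholesterol from acetyl-CoA, and they are known to be switched on together by SREBP2 when sterols are scarce. Of 25 tested, 8 fell and 0 rose, against 0.613% of all genes that fell. The median log2 fold change was -0.15. Of the 25, 19 were below all 3 references (76%), against 23.7% of all tested genes with at least 50 reads. This list too was chosen with earlier results of these data known. HMGCS1, a synthase early in the pathway, was at 327 CPM in total KD, 387 in HUES66 WT, and 405 and 424 in N-short KD and N-long KD (log2 fold change -0.33, SE 0.0421, adjusted p 1.1e-06). MSMO1 (-0.33, adjusted p 8.2e-04) and NSDHL (-0.35, adjusted p 0.0402), which act later in the pathway, fell by similar amounts. The count of 8 was 5 with library size in place of TMM, 5 without the N-long KD library and 0 with no term for library set.

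Some chaperone genes were lower as well. The lists used here were likewise chosen with earlier results of these data known. Of 20 genes of the unfolded protein response of the endoplasmic reticulum 5 fell and 0 rose, against 0.613% of all genes that fell, with a median of -0.11. PDIA4, a disulfide isomerase, was at 317 CPM in total KD and 365 to 381 in the references (log2 fold change -0.25, adjusted p 5.2e-04). HSP90B1, an HSP90 of the endoplasmic reticulum, was at 1542 against 1760.1 to 1791 (-0.22, adjusted p 5.4e-05), and HSPA5 (BiP) at 475 against 517 to 545 (-0.19, adjusted p 0.0103). CANX and PDIA6 also fell. At 48 and 96 hr the median log2 ratio to control of this list was -0.03 and 0.01. That of the heat shock and proteostasis list below was 0.05 and -0.02. Of 13 heat shock and proteostasis genes DNAJA1, HSPA8 and HSP90AA1 fell and 0 rose, against the same 0.613% of all genes, with HSPA8 at 1744 CPM against 1938 to 2057 (-0.22, adjusted p 1.7e-04).

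**Figure D5:**
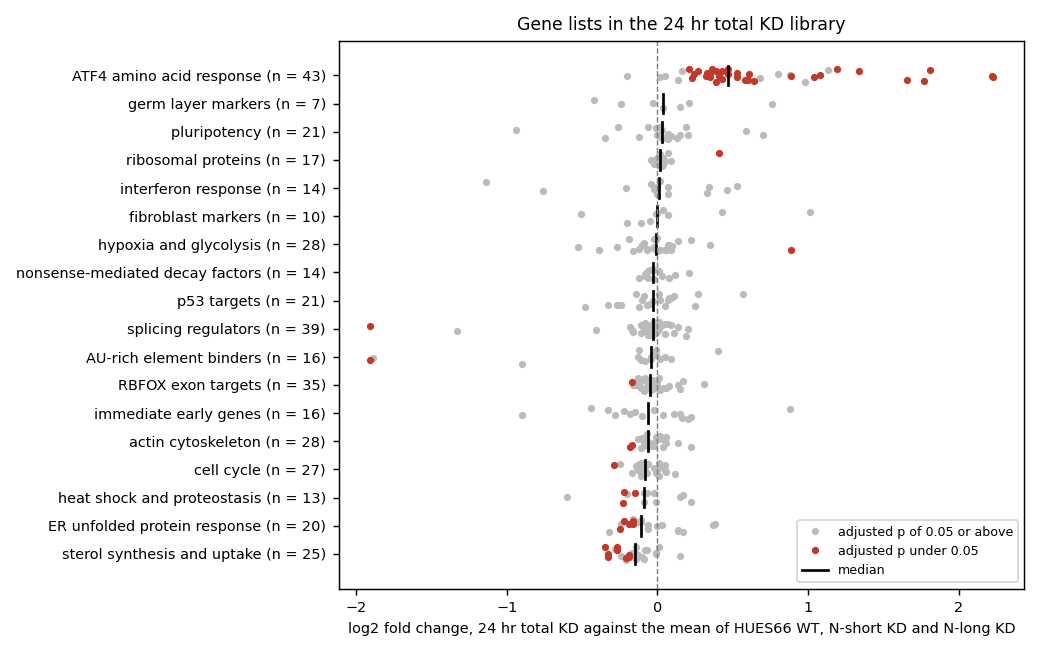
Fitted log2 fold changes of the 24 hr total KD library against the mean of the 3 references, 1 point per gene, by list, with red for an adjusted p under 0.05 and a bar at the median (a random vertical shift separates points; the RBFOX family is left out). The amino acid response list lies to the right with a median of 0.47, and the sterol list has the lowest median at -0.15.

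The other lists held few genes that passed, and over all genes 0.527% rose and 0.613% fell. Of 21 p53 targets, 14 interferon response genes, 21 pluripotency genes, 7 germ layer markers, 10 fibroblast markers, 16 immediate early genes and 14 nonsense-mediated decay factors 0 passed. At an unadjusted p of 0.05 these lists held 0, 1, 3, 0, 2, 1 and 1 genes. Of 28 hypoxia and glycolysis genes only VEGFA, which the amino acid response list also holds, rose (0.89, adjusted p 5.7e-06). Of 17 ribosomal protein genes RPL22L1 rose (0.41, adjusted p 0.00331). Of 27 cell cycle genes MKI67, a proliferation marker, fell (-0.29, adjusted p 0.0014). Of 28 actin cytoskeleton genes ANLN (-0.18, adjusted p 0.0402) and DIAPH1 fell.

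The 24 hr total KD library was also set against the total KD libraries at 48 and 96 hr, through the N-short KD and N-long KD libraries of every set. The fit took the N-short KD and N-long KD effects as constant over all sets. These isoform knockdowns alone set the baseline of the 24 hr series, since HUES66 WT had its own term. A change in their effects with time would enter the differences. Time and library series cannot be told apart here. In this comparison 11 of 14035 genes passed (0.0784%), all lower at 24 hr. ELAVL1 differed by -1.27 on the log2 scale (SE 0.109, adjusted p 7.9e-10) and RBFOX2 by -0.60 (SE 0.0998, adjusted p 0.00241). HMGCS1 (-0.44, adjusted p 4.2e-06) was the most changed of 4 sterol genes, with SQLE, ACAT2 and FDFT1. ETNPPL, a phospholyase, differed by -2.94 (SE 0.514, adjusted p 0.00347), with 1.55 CPM in total KD at 24 hr, 2.08 to 2.64 in the 24 hr references, and 13.0 at 48 hr and 3.89 at 96 hr, where the controls had 2.51 and 1.53. TTN, the gene of titin, differed by -0.40 (adjusted p 0.00278), with 350.4 CPM at 24 hr and 312 to 361 in the references, against 549 and 635 in the later total KD libraries and 426 and 429 in their controls. For ETNPPL and TTN the later total KD libraries lay above their own controls, and neither gene passed the test of the 24 hr library against its series (adjusted p 0.702 and 0.922). Without the first N-short KD library of 24 hr the calls of ETNPPL and TTN were lost (adjusted p 0.0935 and 0.0696). That of ETNPPL was also lost without the 48 hr total KD library (-1.93, adjusted p 0.175) and that of TTN without the 96 hr total KD library (-0.28, adjusted p 0.0656). With time point in place of library set the calls of ETNPPL, TTN and RBFOX2 were lost (adjusted p 0.768, 0.664 and 0.284), and with no term for library set 0 genes passed (353 at an unadjusted p of 0.05). Without the first N-short KD library of 24 hr 5 genes passed, and without the 48 hr total KD library 23.

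Of 6775 exons 2 passed in the comparison with later total KD (0.0295%). One was the 97 nt exon of AP2M1 with the junction listing described above. The other was a 60 nt exon of CBWD5, with 34 skipping reads at 24 hr and an inclusion of 42.4%, against 100% and 94.7% in total KD at 48 and 96 hr from 24 and 19 reads in all. The controls of those times were at 44.4% and 31.0%, so the later total KD libraries lay far above their own controls. HUES66 WT had 1 skipping read for it, while N-short KD and N-long KD had 35 and 38. CBWD5 has near-identical copies in the genome among which reads can be split, so this value is uncertain.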

How the data were processed

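RNA was measured by ribosome-depleted sequencing of HUES66 libraries. The authors' deposited junction files hold whole-number counts of reads per splice junction, and the fifth column was used. Per the submitters' processing notes STAR 2.7.1, SAMtools 1.9 and hg38 were used, with no role given. The authors' deposited event tables, which hold inclusion differences as a fraction and p-values with adjusted p-values, were used as given, and 21 per-library columns in them were not used.

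Junctions were matched to introns of GENCODE 29 (GRCh38), and 97.84% to 98.27% of reads were annotated. Gene sums took only introns annotated to a single gene name (94.39% to 94.76% of reads). Genes that share introns with another annotated gene can therefore have counts that are too low. CPM was computed from the deposited counts. Cassette exons of at most 1000 nt with a mean of at least 20 reads were tested. Their inclusion in the pooled reads of the 15 libraries had to lie between 2% and 98%. Genes and exons were fitted with edgeR 4.0.16 (R 4.3.3, Benjamini-Hochberg adjustment, threshold 0.05) over 15 HUES66 libraries. The terms were library set, N-short KD, N-long KD, later total KD, HUES66 WT and the 24 hr total KD library (6 residual degrees of freedom). Gene counts were scaled with TMM. The exon fit used no TMM scaling and held a further term for each library. The 4 libraries of other cell lines were not used. Libraries of the same set deviated together (median residual correlation 0.52 in 18 pairs of the same set, -0.24 in 73 others), so the set was kept as the block. The labels do not say that replicates are separate cultures, so p-values measure only the spread between these samples. Intervals are 95%, exact for ratios of counts and Wilson for inclusion, and cover counting error only. Alternatives used limma 3.58.1 and DESeq2 1.42.0.

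The rule for names took the 10 genes with the largest changes in each direction that passed, exceeded each reference 2-fold and had at least 50 reads, up to 4 passing members of each of 19 lists by size of change, the 5 largest in each direction against later total KD, and exons that passed and differed from each reference by 20 points with at least 20 reads. That rule took the exons of FMNL3, EPB41, MYO18A and AP2M1. The other exons that passed, the remaining amino acid response genes described (SLC7A11, PCK2, PSAT1, PHGDH, MTHFD2, AARS, CARS, YARS, ATF4 and those that did not pass) were chosen after their values were seen. Some list members are not reported here. The members and lists were chosen with earlier results of these data known. On simulated data the fit recovered 71.4% of 196 genes changed by 1 on the log2 scale (13657 tested) against the series and 59.2% against later total KD. For exons changed by 2 on the log2 odds scale (6775 tested) it recovered 47% and 17%. With no change simulated 0 were called. Simulated counts cannot show how the single total KD culture itself varied. The simulation is therefore no test of the assumption that this culture varied as the other HUES66 libraries did, and no false call rate for the real libraries follows from it.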

Additional observations from a re-analysis of the deposited data

Results flagged for a closer look

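The effect of total KD at 24 hr differed from that at 48 and 96 hr by a test of the difference itself for 11 genes and 2 exons (edgeR, adjusted p under 0.05). The 24 hr baseline came from N-short KD and N-long KD, whose effects were taken as constant over all sets. Time and library series cannot be told apart in these differences. The log2 fold changes, 24 hr against later, were -2.94 for ETNPPL, -1.27 for ELAVL1, -0.60 for RBFOX2, -0.44 for HMGCS1, -0.40 for TTN, -0.35 for SQLE, -0.32 for UTP20, -0.31 for ACAT2, -0.31 for TSR1, -0.27 for HSPA8 and -0.25 for FDFT1. UTP20 and TSR1 are ribosome assembly factors. The log2 odds ratios of inclusion were 21.57 for the 97 nt AP2M1 exon and -5.64 for the CBWD5 exon, both uncertain for the reasons given with their reads.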

How the results depend on the processing

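The 15 exons were lower in each alternative in which they were tested (14 of them with a mean of at least 50 reads), and no gene called against the series changed sign. Requiring an absolute log2 fold change of at least 1 left 19 genes against the series, 2 against later total KD and 9 of the amino acid response. With no replicate block (no term pairing libraries of a set) these counts were 2, 0 (353 at an unadjusted p of 0.05) and 0, and for exons 0 against the series and 1 against later total KD. With time point in place of library set they were 18, 2 and 10. DESeq2 gave 43 genes against later total KD and 17 of the amino acid response. Its independent filtering left 14 of the 33 response genes without an adjusted p, and without that filtering, an alternative chosen after seeing the data, it gave 9 and 24. Without the filter on low counts 32 genes passed against later total KD, and with HUES66 WT as a control of its set 7. Limma gave 0 exons in both comparisons (332 and 324 unadjusted). Without HUES66 WT 12 exons passed against the series. Keeping only exons with balanced junctions, also chosen after seeing the data, left 1 against later total KD. Leaving out 1 library at a time gave 105 to 199 genes against the series, 5 to 23 against later total KD, 28 to 34 of the amino acid response, 9 to 26 exons against the series and 2 to 3 against later total KD. With at least 200 reads 10 genes were past 2-fold, and 84 without HUES66 WT. With at least 50 reads 2 exons were past 20 points, and 15 without HUES66 WT. RBFOX2 stood at 47.8% of the mean of the references, 47% with TMM factors and 48.7% over all junctions inside the gene.

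The knockdown side is 1 library, so its own biological spread was not measured, and genes or exons with few junction reads could not be resolved.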
